A study of Mus musculus with 14 samples.

Results

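The effect of one short hairpin, shSetdb1.6, was compared with that of the non-silencing control hairpin, Nons, in differentiating female mouse ES cells at day 5. The comparison used 4 of the 14 RNA-seq libraries of the series, 2 replicates with each hairpin, and they were taken by their labels. Hairpin shSetdb1.6 is directed against Setdb1, a methyltransferase for lysine 9 of histone H3 (H3K9). All libraries came from ES cells derived from blastocysts, with the genotype Setdb1+/+ Xist∆A/+, from dams labelled 129/C57 and CAST sires. The Nons and shSetdb1.6 cells were moved stepwise from 2i plus LIF medium into serum medium, transduced with retrovirus and selected with puromycin. The sources differ on when transduction took place, since the labels give day 2 and the methods the start of differentiation. Both replicates came from separate experiments with one F1 line. The study's text mentions that the cultures contained XO cells. In bulk RNA a smaller share of XO cells and weaker silencing in each cell cannot be told apart.

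X chromosome inactivation (XCI) equalises the dose of X-linked genes between the sexes by silencing one of the X chromosomes of a female cell. The long noncoding RNA Xist coats the chromosome that becomes inactive (Xi), and repressive chromatin marks then accumulate on it. The Xist∆A allele lacks the repeats needed for silencing, so in these cells the 129 chromosome that carries it stays active (Xa) and the CAST chromosome is the Xi. Setdb1 trimethylates H3K9 and is known for repressing endogenous retroviruses and germline genes in ES cells. A gene that is silenced on the Xi loses reads with the CAST base relative to reads with the 129 base, and its Xi/Xa ratio falls below 1.

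The hairpin sequences define the comparison. The guide strand of each hairpin used at day 5 is given from its 5′ end in lower case, as the study lists its oligonucleotides, and the last line is the Setdb1 sequence that pairs with the shSetdb1.6 guide.
Nons guide: cttactctcgcccaagcgagag
shSetdb1.6 guide: tagatcttgagaactgcttttc
shSetdb1.4 guide: tttgtctgcaaagtcatctgtc
shSetdb1.6 target: aaaagcagttctcaagatcta
The 21 base target of shSetdb1.6 lies in coding exon 5 of 22 of Setdb1, at chr3:95348003-95348023 on the minus strand (mm10), and is present in 3 of 3 protein-coding transcripts of the gene. The target of the second hairpin, shSetdb1.4, lies further downstream in exon 16. Among annotated transcripts of the GENCODE release used, both targets matched Setdb1 exactly and no other gene, and the Nons target matched 0 genes. Setdb1 is on chromosome 3 and the deposited allele counts cover the X chromosome, so the depletion of Setdb1 itself was not measured here.

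The 4 libraries held 87088 and 32972 reads over X-linked SNPs with Nons (replicates 1 and 2) and 100999 and 72083 reads with shSetdb1.6. Nons replicate 2 was therefore the shallowest library of the series, and 783 of its 2239 SNPs had at least 10 reads, against 1607 in Nons replicate 1. Reads with the CAST base made up 42.6% (95% Wilson interval 42.3 to 43.0) and 46.1% (45.5 to 46.6) of the reads with Nons. With shSetdb1.6 they made up 48.2% (47.9 to 48.5) and 50.8% (50.4 to 51.1). These intervals treat every count as independent and leave out the spread between replicates. They understate even the counting error, because a read covering several SNPs counts at each. Reads counted without molecular identifiers can also be copies of one molecule. Markers of the undifferentiated state were low in all 4 libraries. The summed level of the X-linked pluripotency genes was between 193 and 230 reads per 100000, against 1076 to 1861 at day 3 with the same hairpins. Of 13 genes of blood cells 1, Il13ra1, had a SNP in the table, with 0 to 1.39 reads per 100000. The others were not measured, so the list cannot show whether blood cells were absent.

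Reads of the CAST chromosome were more frequent relative to those of the 129 chromosome with shSetdb1.6 than with Nons at day 5. Over SNPs with at least 10 reads, the library medians of the log2 Xi/Xa ratio were -0.47 and -0.25 in the Nons libraries and -0.090 and 0.027 in the shSetdb1.6 libraries, so that the groups did not overlap. The difference was 0.38 in replicate 1 and 0.28 in replicate 2, with a mean of 0.33 ± 0.07 (SD, n = 2). An exact permutation test, two-sided, gave p = 0.5 within replicates and p = 0.333 without the pairing, which are the smallest values that 2 replicates allow. On day 3 the medians were 0 in all 4 libraries of both hairpins. From day 3 to day 5 the shSetdb1.6 libraries changed by -0.090 and 0.027, whereas the Nons libraries changed by -0.47 and -0.25.

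The same was seen when the SNPs of each gene were summed. Genes were tested where each library had 10 reads or more (247 genes). Of these, 208 had a higher fitted Xi/Xa ratio with shSetdb1.6 than with Nons (84.2%), with a median difference of 0.36 on the log2 scale. Fewer genes had a strongly lowered ratio. Genes with a log2 ratio below -1, meaning more than 2 reads of the Xa for each read of the Xi, numbered 33 and 23 in the Nons libraries and 12 and 13 in the shSetdb1.6 libraries. At day 3 they numbered 9 and 18 with Nons and 19 and 16 with shSetdb1.6.

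**Figure D1:**
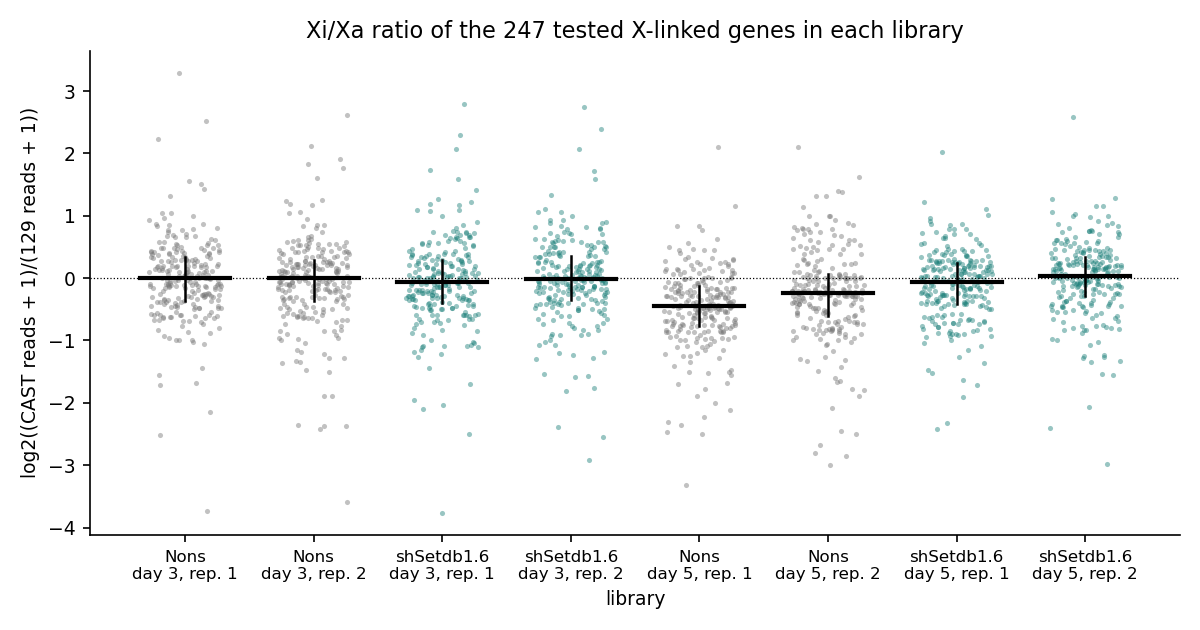
Log2 Xi/Xa ratio (CAST reads + 1 over 129 reads + 1) of the 247 tested genes in each Nons (grey) and shSetdb1.6 (teal) library at day 3 and day 5. Each point is a gene, horizontal bars are medians and vertical bars span the middle 50% of genes. The gene medians at day 5 were -0.45 and -0.24 with Nons and -0.057 and 0.036 with shSetdb1.6.

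The difference was seen at many SNPs and along the length of the chromosome. Among SNPs with at least 10 reads in both libraries of a replicate, 1081 of 1517 had a higher ratio with shSetdb1.6 in replicate 1 (71.3%) and 529 of 776 in replicate 2 (68.2%). Median differences at SNPs in coding sequence were 0.36 and 0.28 in replicates 1 and 2, and 0.38 and 0.33 at SNPs in 3′UTRs. The few SNPs in 5′UTRs had 0.31 (32 of 52 higher) and 0.21 (10 of 19 higher). When the chromosome was divided into windows of 10 Mb, each of the 16 windows with a tested gene had a median difference above 0, from 0.23 at 100 to 110 Mb (27 genes) to 0.50 at 40 to 50 Mb (10 genes). SNPs of one gene and neighbouring genes share libraries, so these counts describe the pattern and are not a test.

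Individual genes were less reproducible than the chromosome as a whole. Of the 247 genes, 159 (64.4%) had a higher ratio with shSetdb1.6 in both replicates, 17 (6.88%) had a lower ratio in both and 71 differed in direction. The differences of the same genes in replicate 1 and replicate 2 had a Pearson's r of 0.22 and a Spearman's rho of 0.16 across genes, which are not independent replicates and share the libraries of each replicate. The size of the difference was also set beside the silencing of each gene in the control of the other replicate, which shares no library with it. Genes that lost most of their ratio from day 3 to day 5 in Nons replicate 1 had a median difference of 0.32 in replicate 2 (83 genes), those in the middle had 0.34 (81 genes) and those that lost least had 0.13 (83 genes). In the reverse arrangement the medians in replicate 1 were 0.44 for the most lowered (82 genes), 0.36 for the middle (82 genes) and 0.29 for the least lowered genes (83 genes). Spearman's rho over all genes was -0.22 and -0.18, which is weak.

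**Figure D2:**
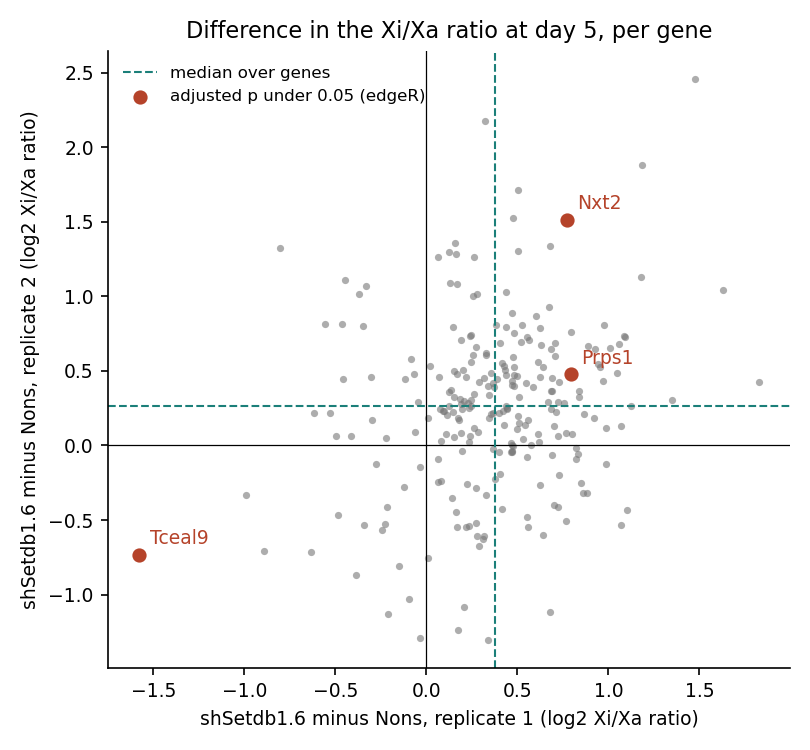
Difference in log2 Xi/Xa ratio between shSetdb1.6 and Nons at day 5 in replicate 1 (horizontal axis) and replicate 2 (vertical axis) for each of the 247 tested genes. Dashed lines mark the medians, 0.38 and 0.26, and red points are the 3 genes with an adjusted p under 0.05, of which Tceal9 lies in the lower left quadrant and Nxt2 and Prps1 in the upper right.

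Few single genes passed the test. The quasi-likelihood test of edgeR was run over the 247 genes and adjusted by the Benjamini-Hochberg method. By this test 3 genes had an adjusted p under 0.05 (1.21%), 2 of them higher with shSetdb1.6 (Nxt2 and Prps1) and 1 lower (Tceal9). With SNPs at least 100 bp apart the test called 13 genes higher and 1 lower, and in the libraries of day 5 alone 6 higher and 1 lower. Before adjustment 50 genes had a p under 0.05 (20.2%), of which 49 were higher with shSetdb1.6 (19.8% of the genes tested), and DESeq2 called 1 gene, Tceal9, with 25 at an unadjusted p under 0.05. The number at an unadjusted p under 0.05 was 27 without Nons replicate 1, 26 without shSetdb1.6 replicate 1, and 42 and 35 without the second replicate of Nons and of shSetdb1.6.

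Nxt2 encodes a small cofactor of the nuclear export of mRNA. It had 312 reads of 129 and 200 of CAST in Nons replicate 1, and 63 and 20 in Nons replicate 2. With shSetdb1.6 the counts were 235 and 258 in replicate 1 and 254 and 238 in replicate 2. Its log2 ratio was thus -0.64 and -1.61 with Nons and 0.13 and -0.094 with shSetdb1.6, and the alleles were close to even in the shSetdb1.6 libraries. The fitted difference was 0.86 ± 0.25 (SE), with an edgeR adjusted p of 0.0448. Of its 13 SNPs, 12 lie in the 3′UTR. Among those with at least 10 reads in both libraries, 9 of 10 were higher in replicate 1 and 6 of 6 in replicate 2. The call was lost without Nons replicate 2, the shallow library (0.53, edgeR adjusted p 0.317), without shSetdb1.6 replicate 1 (0.62, 0.432) and without shSetdb1.6 replicate 2 (1.08, 0.0537), whereas without Nons replicate 1 the difference was 1.8 and the edgeR adjusted p 0.0083. With SNPs at least 100 bp apart, so that few reads count at several SNPs, the difference was 0.64 (edgeR adjusted p 0.156).

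Prps1 and Prps2 encode phosphoribosyl pyrophosphate synthetases, which supply the sugar phosphate for making nucleotides. Prps1 had 433 and 240 reads (129 and CAST) in Nons replicate 1, 197 and 162 in Nons replicate 2, 466 and 449 in shSetdb1.6 replicate 1, and 327 and 375 in shSetdb1.6 replicate 2. Its log2 ratio rose from -0.85 and -0.28 with Nons to -0.054 and 0.20 with shSetdb1.6, a fitted difference of 0.66 ± 0.19 (SE, edgeR adjusted p 0.0448). At day 3 its ratio lay between 0.31 and 0.57 in all 4 libraries, so even with shSetdb1.6 it was lower at day 5 than at day 3. All 6 SNPs of the gene lie in the 3′UTR, and 6 of 6 were higher in replicate 1 and 5 of 6 in replicate 2. The difference was 0.47 without Nons replicate 1 (edgeR adjusted p 0.443), 0.81 without Nons replicate 2 (0.0941), and 0.64 and 0.66 without shSetdb1.6 replicates 1 and 2 (0.432 and 0.208). With SNPs at least 100 bp apart Prps1 passed, with an edgeR adjusted p of 0.0345. Without the replicate number in the fit the differences were 0.92 for Nxt2 and 0.66 for Prps1, with an edgeR adjusted p of 0.13 for both. Prps2 had a similar difference, 0.59 ± 0.20 (SE), which did not pass the threshold (edgeR adjusted p 0.0718), and its ratio was -0.69 and -0.25 with Nons and 0 and 0.21 with shSetdb1.6.

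SNPs of these genes are shown in their transcript sequence. Each window below has 29 bases of the GENCODE transcript, 5′ to 3′, and capitals mark bases that differ in CAST, the SNP itself being at position 15 counted from the 5′ end. The reference base is the one counted as 129. One window is shown for the most deeply covered SNP of Nxt2, of Prps1 and of Taf7l, which is described further on, and for the 5′UTR SNP of Tceal9, which went against its other SNPs in replicate 1.
Nxt2, chrX:142238469, 3′UTR: ctctgAaaccttttGttcgtgccggcttc
Prps1, chrX:140475900, 3′UTR: gatcattgtaacaaTatcttcggtaatac
Taf7l, chrX:134460579, 3′UTR: ggattcaccctccaGatgaagactgggtg
Tceal9, chrX:136245163, 5′UTR: gtaccagctcccttTagccttgcagacgg
The SNPs at position 15 are G15T in Nxt2, T15C in Prps1, G15A in Taf7l and T15C in Tceal9. A second SNP, A6G, falls in the Nxt2 window. None of these windows, with the 129 or the CAST bases, occurred in a transcript of another gene.

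Tceal9, which encodes a small protein of the transcription elongation factor A-like family, went in the opposite direction. It had 839 reads of 129 and 664 of CAST in Nons replicate 1 and 317 and 260 in Nons replicate 2. With shSetdb1.6 it had 1152 and 305 in replicate 1 and 787 and 388 in replicate 2. The log2 ratio was -0.34 and -0.28 with Nons and -1.91 and -1.02 with shSetdb1.6, a fitted difference of -1.18 ± 0.18 (SE, edgeR adjusted p 2.18e-08). It passed the threshold in all 13 alternative settings run, and the difference ranged from -1.54 to -0.90. Each of these settings kept at least 1 of the 2 adjacent 3′UTR SNPs that hold most of its reads, so the call was not tested without them. Its total reads did not pass the test (log2 fold difference -0.14, edgeR adjusted p 0.937). Most of its reads came from 2 adjacent SNPs in the 3′UTR, which are covered by the same reads. At these SNPs the difference was -1.76 and -1.61 in replicate 1 and -0.77 and -0.73 in replicate 2. At its 5′UTR SNP the difference was 0.70 in replicate 1 (53 and 13 reads with Nons, 44 and 18 with shSetdb1.6) and -0.44 in replicate 2 (17 and 10, 30 and 13), so the regions of the transcript did not agree in replicate 1.

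The other genes of the highest rank had differences between 0.48 and 1.92 and adjusted p-values between 0.0571 and 0.0718, so none passed. With SNPs at least 100 bp apart 5 of them passed, Zfx (1.51, edgeR adjusted p 0.0041), Piga, Flna and Utp14a (0.0353 each) and Prps2 (0.0437). In the libraries of day 5 alone Piga (0.0426), Zfx and Elf4 (0.0474 each) passed. In the 4 libraries alone Flna passed (edgeR adjusted p 0.00535), while Nxt2 (0.0571) and Prps1 (0.0539) did not. They were Piga, which encodes an enzyme that starts the synthesis of GPI anchors, Zfx, a zinc finger transcription factor, Flna, the actin cross-linker filamin A, Sms (spermine synthase), Elf4, a transcription factor of the ETS family, Utp14a, a protein of ribosomal RNA processing, Tab3, an adaptor of TAK1 signalling, Acsl4, which activates long-chain fatty acids, and Prps2. For each of them both shSetdb1.6 libraries had a higher ratio than both Nons libraries. Piga had 63 and 33 reads (129 and CAST) and 17 and 7 reads in the Nons libraries, and 42 and 51 and 21 and 35 reads in the shSetdb1.6 libraries, a difference of 1.47 ± 0.45 (SE, edgeR adjusted p 0.0571). In Zfx the log2 ratio was -0.98 and -1.03 with Nons and 0.20 and 0.10 with shSetdb1.6, a difference of 1.15 ± 0.35 (SE, edgeR adjusted p 0.0571). Flna, the most deeply covered of them, had 1889 and 1357 reads in Nons replicate 1 and 1565 and 1591 in shSetdb1.6 replicate 1, and 14 of its 17 SNPs were higher in replicate 1 and 16 of 17 in replicate 2. Utp14a stayed well below even expression of the alleles, with ratios of -2.12 and -1.77 with Nons and -1.15 and -1.34 with shSetdb1.6. Sms, by contrast, had even alleles with Nons (0.013 and 0.014) and more CAST than 129 reads with shSetdb1.6 (0.64 and 0.80). Tab3 had ratios of -0.64 and -0.94 with Nons and -0.029 and -0.073 with shSetdb1.6, and Acsl4 had -0.14 and -0.26 with Nons and 0.35 and 0.50 with shSetdb1.6. Elf4 had the largest fitted difference of these genes, 1.92 ± 0.65 (SE), on 9 and 1 CAST reads with Nons, and had 3.12 without Nons replicate 1.

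**Figure D3:**
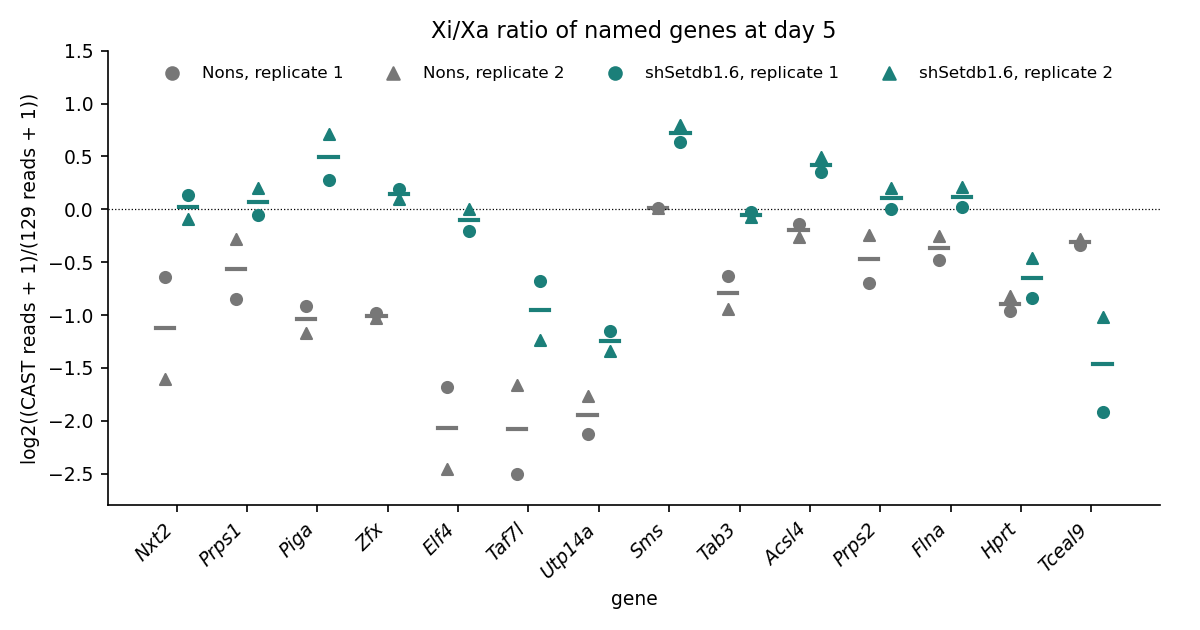
Log2 Xi/Xa ratio of 14 genes in the Nons (grey) and shSetdb1.6 (teal) libraries at day 5. Circles are replicate 1, triangles replicate 2 and bars the means of both, and the shSetdb1.6 points lie above both Nons points for every gene shown except Hprt, where they overlap, and Tceal9, where they lie below.

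Besides Tceal9, 4 genes with a lower ratio in both replicates were named by rank, and none passed. Rpgr, a gene of the photoreceptor cilium, had a difference of -0.65 ± 0.34 (SE, edgeR adjusted p 0.248), Zc4h2, a zinc finger gene, -0.88 ± 0.59, Ubl4a, which helps to insert tail-anchored proteins into membranes, -0.71 ± 0.49, and Gripap1, an endosomal protein gene, -0.76 ± 0.54. The edgeR adjusted p was 0.35 for Zc4h2, 0.351 for Ubl4a and 0.376 for Gripap1. They had 17 to 89 reads in Nons replicate 2. The difference of Rpgr was -1.23 and -0.12 without shSetdb1.6 replicate 1 and replicate 2, and -0.36 without Nons replicate 1. It was -0.16 with SNPs at least 100 bp apart. Of its SNPs with at least 10 reads in both libraries, 2 of 4 were higher in replicate 1 and 2 of 3 in replicate 2. The difference of Gripap1 was -0.41 without shSetdb1.6 replicate 1.

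Genes of known pathways were followed as lists, and most members of each had a higher ratio, as did 84.2% of all genes. All 13 tested genes of mitochondrial proteins were higher (median 0.30), as were all 31 of signalling, cytoskeleton and adhesion (0.44). Of the enzymes of metabolism 33 of 35 were higher (median 0.44), and Prps1 was the 1 member past the threshold. Of the genes of RNA processing, export and translation 25 of 27 were higher (0.43), with Nxt2 past the threshold and Ints6l, a subunit of the Integrator complex, at 1.00 ± 0.41 (SE, edgeR adjusted p 0.14). Of the chromatin regulators 13 of 14 were higher (0.39), with -0.19 for Smc1a, a subunit of cohesin, and 0.79 for Bcorl1, a corepressor gene. Transcription factors and cofactors had 15 of 20 higher (0.38) and the widest range, from Tceal9 to Elf4. Of the ubiquitin pathway 9 of 11 were higher (0.35), among them Rlim, the ubiquitin ligase that activates Xist, at 0.35 ± 0.16 (SE, edgeR adjusted p 0.17). The medians of these lists, 0.30 to 0.44, lay around the 0.36 of all genes.

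Genes that escape XCI were measured in the same way. The 5 tested members had fitted differences of 0.10 for Kdm6a, 0.11 for Eif2s3x, 0.39 for Kdm5c, 0.40 for Pbdc1 and 0.45 for Ddx3x, and none passed the threshold (edgeR adjusted p between 0.170 and 0.830). Kdm5c and Kdm6a encode histone demethylases, Eif2s3x a subunit of an initiation factor and Ddx3x an RNA helicase. Kdm6a had even alleles throughout, with log2 ratios of 0.13 and -0.11 with Nons and 0.21 and 0.14 with shSetdb1.6. Kdm5c had -0.22 and -0.19 with Nons and 0.14 and 0.22 with shSetdb1.6. Relative to the median of each library, which takes away the shift common to all genes, the differences were by construction lower, at -0.26 for Kdm6a, -0.25 for Eif2s3x, 0.032 for Pbdc1, 0.041 for Kdm5c and 0.12 for Ddx3x. Without centring but also without Nons replicate 2, the difference was -0.044 for Kdm6a and -0.063 for Eif2s3x. The difference of Pbdc1 was 0.088 without Nons replicate 2 and 0.91 without Nons replicate 1. Hprt, a gene of purine salvage, had a difference of 0.24 ± 0.20 (SE, edgeR adjusted p 0.434), or 0.36 and 0.13 without shSetdb1.6 replicate 1 and replicate 2, with ratios of -0.96 and -0.82 with Nons and -0.84 and -0.46 with shSetdb1.6. It remained the lower allele on the Xi in all 4 libraries.

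A higher ratio can come from more CAST reads, fewer 129 reads or both, so the alleles were also compared separately with edgeR, scaled by the X-linked total of each library and its TMM factor. CAST reads were higher with shSetdb1.6 for 190 of 247 genes (76.9%), with a median log2 fold difference of 0.23. Reads of 129 were higher for 85 genes (34.4%), with a median of -0.13. Scaling by library totals alone gave 178 and 77 genes, with medians of 0.19 and -0.16. Because both scales rest on X-linked reads, a common change of all X-linked genes relative to autosomes would not be seen, and the values for the alleles are relative to each other. For Piga, CAST reads had a fold difference of 0.66 and 129 reads of -0.80 on the log2 scale, and for Flna 0.01 and -0.47. For Nxt2 the values were 1.05 and 0.21, and for Prps2 0.58 and 0.01. The CAST values of Nxt2 and Piga were 2.21 and 1.33 without Nons replicate 1, where Nxt2 passed (edgeR adjusted p 0.00567), and 0.49 and 0.35 without Nons replicate 2. That of Prps2 was 0.36 without Nons replicate 1.

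**Figure D4:**
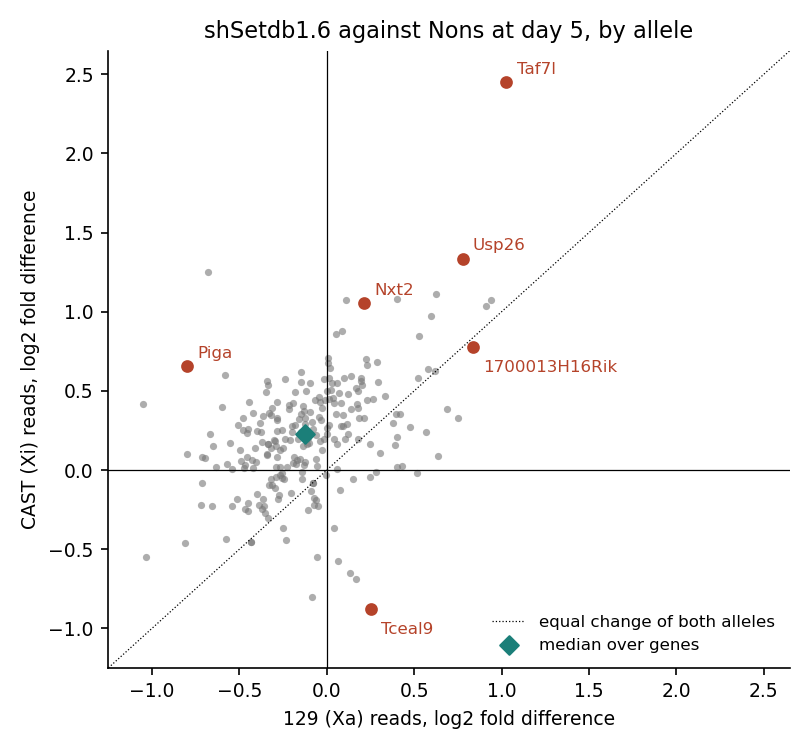
Log2 fold difference between shSetdb1.6 and Nons at day 5 in 129 (Xa) reads (horizontal axis) and CAST (Xi) reads (vertical axis) for each tested gene. The diamond marks the medians, -0.13 and 0.23, and points above the dotted line have a higher Xi/Xa ratio; Taf7l is at 1.03 and 2.45, with both alleles higher.

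Taf7l alone passed the test on CAST reads (1 of 247 genes, 0.405%), and 28 genes had an unadjusted p under 0.05 (11.3%). Taf7l encodes a testis form of a subunit of the general transcription factor TFIID and is expressed mainly in male germ cells. It had 8 and 5 CAST reads with Nons and 76 and 30 with shSetdb1.6, and 50 and 18 reads of 129 with Nons against 122 and 72 with shSetdb1.6. Its share of reads was 66.6 and 69.8 per 100000 with Nons and 196 and 142 with shSetdb1.6, so the groups did not overlap. In bulk RNA more cells that express a gene and more RNA in each cell cannot be told apart. The log2 fold difference was 2.45 ± 0.45 (SE, edgeR adjusted p 0.00967) in CAST reads and 1.03 ± 0.31 (SE, edgeR adjusted p 0.353) in 129 reads. The CAST difference did not pass without shSetdb1.6 replicate 1 (edgeR adjusted p 0.319), nor without Nons replicate 1 (log2 fold difference 1.76). At both of its SNPs, one in the coding sequence of exon 5 and one in the 3′UTR, CAST reads were more numerous in both shSetdb1.6 libraries. At day 3 it had 27.2 and 23.8 reads per 100000 with Nons and 40.4 and 49.5 with shSetdb1.6, lower than at day 5 with the same hairpin.

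Total reads per gene were compared next. In the edgeR quasi-likelihood test 0 of 247 genes had an adjusted p under 0.05 (0%), 17 had an unadjusted p under 0.05 (6.88%), 12 of them higher with shSetdb1.6 (4.86%). DESeq2 also called 0 genes, with 14 at an unadjusted p under 0.05. The number at an unadjusted p under 0.05 was 50 without Nons replicate 1, 7 without Nons replicate 2, and 12 and 6 without shSetdb1.6 replicates 1 and 2. The median log2 fold difference was 0.02. The 4 genes with the smallest p and a higher total were Taf7l (1.36 ± 0.29, SE), 1700013H16Rik (0.81 ± 0.21), the deubiquitinase gene Usp26 (1.01 ± 0.33) and Mcf2, a guanine nucleotide exchange factor (1.01 ± 0.34), with edgeR adjusted p-values of 0.069, 0.222, 0.430 and 0.430. Of these, 1700013H16Rik had 832.5 and 667 reads per 100000 with Nons and 1529 and 1053 with shSetdb1.6, with even alleles in all 4 libraries (log2 ratios between -0.080 and 0.16). Mcf2 had 74.6 and 33.4 reads per 100000 with Nons and 119 and 114 with shSetdb1.6, with log2 ratios between -0.21 and 0.29. The 4 genes with the smallest p and a lower total were Tceal8 (-0.65 ± 0.20), Pdha1 (-0.38 ± 0.16), Firre (-0.43 ± 0.19) and Bex1 (-0.50 ± 0.23), with edgeR adjusted p-values from 0.395 to 0.681. Firre, the gene of a long noncoding RNA that binds nuclear matrix, kept nearly the same allelic ratio, between -2.49 and -2.36, in the 4 libraries. Without Nons replicate 1, Usp26 (1.98) and Bex1 (-0.95) passed with an edgeR adjusted p of 0.0244, while Mcf2 had 1.90 and did not. Without Nons replicate 2 the differences were 0.53 for Usp26, 0.61 for Mcf2 and 0.030 for Bex1. Firre had -0.22 and -0.70 without shSetdb1.6 replicate 1 and replicate 2.

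Germline genes are of interest because H3K9 methylation by Setdb1 represses many of them in ES cells. Of 36 X-linked germline genes on the list 16 had SNPs in the table, and 5 had enough reads for the test. In the totals 5 of 5 were higher with shSetdb1.6, with a median log2 fold difference of 0.63, beside 131 of 247 (53%) and a median of 0.02 for all tested genes. The list of 16 summed to 1137 and 749 reads per 100000 with Nons, 1573 and 1169 with shSetdb1.6, and 1149 and 695 with the other Setdb1 hairpin, shSetdb1.4, so that it was above both Nons libraries in both shSetdb1.6 libraries but not in both shSetdb1.4 libraries. Usp26, which is expressed in the testis, had 233 and 75.8 reads per 100000 with Nons and 336 and 286 with shSetdb1.6. Xlr3c, of the Xlr family, had a difference of 0.63 ± 0.36 (SE, edgeR adjusted p 0.744), while Xlr3a and Nxf3 had 0.16 and 0.15. Copies of the Xlr3 genes are nearly identical, so their reads may be split among them. Counting all 16 genes by reads per 100000, both shSetdb1.6 libraries were above both Nons libraries in 7, as in 65 of the 355 genes in the table (18.3%). Besides Taf7l and Usp26 these were, in reads before scaling, Tex11, a meiotic gene (23 and 6 with Nons, 56 and 29 with shSetdb1.6), Nxf2, an mRNA export factor of the testis (19 and 5, 49 and 24), Tktl1 (4 and 3, 20 and 12), Pramel3 (16 and 5, 45 and 24) and Rhox13 (9 and 3, 15 and 8). The 4 libraries differ in depth, and these genes were below the filter of the test. Other members did not follow, such as Rhox6 (41 and 14, 51 and 9) and Magea4 (17 and 2, 10 and 7).

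Genes of the undifferentiated state were at low levels at day 5. Nr0b1 (Dax1), which is expressed in undifferentiated ES cells and was below the filter of the test, had 12 and 10 reads with Nons and 39 and 33 with shSetdb1.6 at day 5, which is 13.8 and 30.3 against 38.6 and 45.8 reads per 100000. At day 3 it had between 854 and 1611 reads per 100000 with both hairpins. Of the 4 genes of the pluripotency list with SNPs in the table Nr0b1 alone did not overlap between the groups, as did 18.3% of all genes in the same direction. The list summed to 194 and 230 with Nons and 219 and 193 with shSetdb1.6. The list of early lineage genes, with 12 members in the table, summed to 1748 and 2766 reads per 100000 with Nons and 1719 and 1827 with shSetdb1.6. The part of the state of differentiation in the ratios and totals was not tested.

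**Figure D5:**
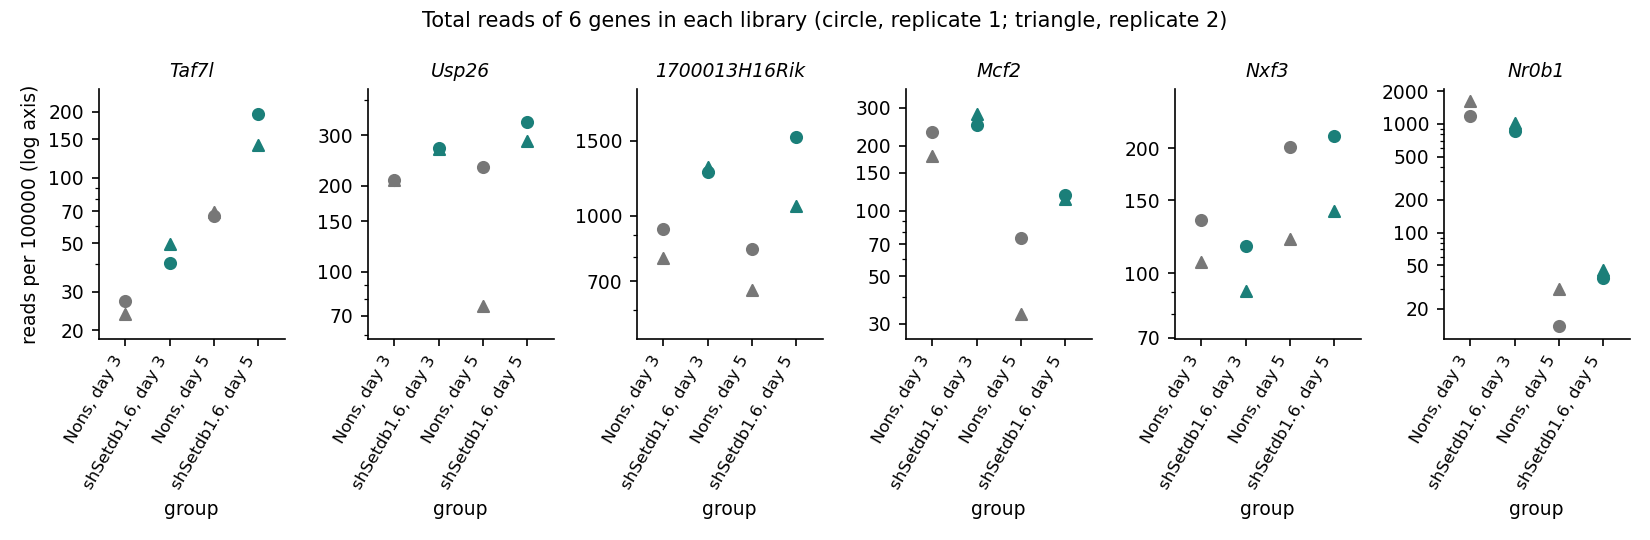
Reads per 100000 X-linked reads (log axis) of 6 genes in the Nons (grey) and shSetdb1.6 (teal) libraries at day 3 and day 5, with circles for replicate 1 and triangles for replicate 2. At day 5 both shSetdb1.6 points are above both Nons points for all genes shown except Nxf3, and Nr0b1 went from at least 854 at day 3 to at most 45.8 at day 5 with both hairpins.

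The effect of shSetdb1.6 was then compared between days. At day 3 the same test called 0 of 247 genes (0%) and 13 had an unadjusted p under 0.05 (5.26%), with 131 genes higher (53%) and a median difference of 0.02. This median was -0.086 without Nons day 3 replicate 2 (101 genes higher) and 0.070 without Nons day 3 replicate 1 (138 higher). The difference between the effects at day 5 and day 3, tested as an interaction, was above 0 for 191 genes (77.3%) with a median of 0.34, and 1 gene passed (0.405%), Tceal9 at -1.79 ± 0.27 (SE, edgeR adjusted p 6.89e-09). Tceal9 had a difference of 0.61 at day 3 and -1.18 at day 5. Within the shSetdb1.6 libraries 9 genes changed in ratio from day 3 to day 5 (3.64%), 4 upwards (1.62%) and 5 downwards (2.02%), with a median change of 0.01. Besides Tceal9, the genes with the smallest p were Klhl13, an adaptor gene of a ubiquitin ligase, Ap1s2, a subunit of a clathrin adaptor, Arxes1, and Zdhhc9, a palmitoyltransferase gene. Klhl13 changed by 1.42, from -0.29 and -0.40 at day 3 to 0.87 and 1.27 at day 5, and in the Nons libraries by 1.16. Ap1s2 changed by -1.41 with shSetdb1.6 and -1.94 with Nons, and Zdhhc9 by -1.08 and -1.59, so that both genes still lost CAST reads relative to 129 with shSetdb1.6. At day 5 Zdhhc9 had log2 ratios of -2.22 and -1.79 with Nons and -1.27 and -1.26 with shSetdb1.6. Arxes1 changed by -2.18 ± 0.53 (SE) with shSetdb1.6, while its change with Nons, -0.79, did not pass. Within the Nons libraries 25 genes changed (10.1%), 24 of them downwards (9.72%), with a median change of -0.33. The effect at day 5 and the change within Nons share the Nons libraries of day 5.

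Hairpin shSetdb1.4, which targets another exon of Setdb1, shares the Nons libraries with shSetdb1.6, so that the values are given side by side. Its library medians at day 5 were -0.27 and 0.19, further apart than those of shSetdb1.6, and its difference from Nons was 0.20 and 0.44 in the replicates, against 0.38 and 0.28 for shSetdb1.6. Per gene, 203 of 247 had a higher ratio with shSetdb1.4 (82.2%) with a median difference of 0.32, 0 genes passed the edgeR test (0%) and 56 had an unadjusted p under 0.05 (22.7%). For Nxt2 the difference was 0.62 with shSetdb1.4 and 0.86 with shSetdb1.6, for Prps1 0.70 and 0.66, for Zfx 0.82 and 1.15, for Piga 0.89 and 1.47, for Utp14a 0.77 and 0.74, for Taf7l 1.24 and 1.44, and for Elf4 0.61 and 1.92. The 1.44 of Taf7l, on 8 and 5 CAST reads with Nons, ranged from 0.86 without Nons replicate 1 to 1.75 without shSetdb1.6 replicate 2. Compared directly, shSetdb1.6 and shSetdb1.4 had a median difference of 0.01 with 125 genes higher (50.6%). This median was -0.18 without shSetdb1.4 replicate 1 (79 genes higher) and 0.18 without shSetdb1.4 replicate 2 (181 higher). With all libraries 1 gene differed (0.405%), Tceal9 at -0.98 ± 0.18 (SE, edgeR adjusted p 9.22e-06). Tceal9 had log2 ratios of -0.97 and -0.02 with shSetdb1.4, so its replicates were further apart than those with shSetdb1.6, and without shSetdb1.6 replicate 1, without shSetdb1.4 replicate 2, or without the replicate number in the fit, 0 genes differed between the hairpins. Total reads of Taf7l were 132 and 80.8 per 100000 with shSetdb1.4, between those of Nons and shSetdb1.6, and Nr0b1 had 10.4 and 23.6 reads per 100000, below both shSetdb1.6 libraries.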

How the data were processed

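Single-end reads of 100 bp were aligned by the authors to mm10 (Subread), who counted reads with the 129 or CAST base at X-linked SNPs of the Mouse Genomes Project with samtools pileup, and the deposited values are these raw counts. Per the labels, CASAVA 1.8.2 and SAMtools were used, and the libraries were made with a kit that does not mark strand. Replicates were not pooled, and 4 per-sample columns of no listed sample were not used.

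Of 2239 SNPs, 2173 in exons of exactly 1 gene (GENCODE, mm10) were summed for 355 genes. Reads covering several SNPs count at each. The Xi/Xa ratio was (CAST + 1)/(129 + 1). Both alleles of all 14 libraries were fitted with edgeR 4.0.16 in R 4.3.3 (quasi-likelihood, Benjamini-Hochberg adjustment), with library terms and allele effects of the conditions and of the replicate number. The latter follows the study's comparison of hairpins with Nons within replicates. Totals and single alleles were fitted with TMM factors and the replicate number. Genes had at least 10 reads in every library (247 genes). Standard errors were derived from the fold difference and its F statistic. The fits were tested on simulated data, where 2-fold changes in 50 of 247 genes were found for 76% (ratios) and 84% (totals). Other steps used Python 3.11.15, and DESeq2 1.42.0 was an alternative.

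The hairpin comparison, the gene lists and the tests were chosen with earlier results of these data known. Genes were named by rank: the 12 smallest p-values with a higher ratio in both replicates, up to 5 with a lower one, 4 totals in each direction, genes past the threshold between hairpins or days, Hprt, tested escape genes and up to 4 members of a list. 1 gene named by this rule is not reported here. Taf7l in the ratios and CAST reads, Nr0b1 and the germline genes below the filter were named after their values were seen. Sequences came from the study's oligonucleotide list and the GENCODE transcripts. Depth was 32972 to 101511 reads per library. Nothing states more than separate experiments behind the replicates, of which there were 2 for each condition. The edgeR p-values of the main fits measure the spread between replicates as estimated over all 14 libraries. They do not measure the spread within the 4 libraries of this comparison alone. Genes outside the X chromosome and Xist were not analysed here.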

Additional observations from a re-analysis of the deposited data

Results flagged for a closer look

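The effect of shSetdb1.6 on the Xi/Xa ratio of Tceal9 differed between day 5 and day 3 by -1.79 on the log2 scale, by a test of the difference itself (quasi-likelihood test of edgeR, Benjamini-Hochberg adjusted p 6.89e-09). Its log2 ratio at day 3 was -0.59 and -0.34 with Nons and -0.28 and 0.53 with shSetdb1.6, and at day 5 it was -0.34 and -0.28 with Nons and -1.91 and -1.02 with shSetdb1.6. Its ratio also differed between shSetdb1.6 and shSetdb1.4 at day 5 by -0.98 (edgeR adjusted p 9.22e-06). Without the replicate number in the fit, or without shSetdb1.6 replicate 1 or shSetdb1.4 replicate 2, 0 genes differed between the hairpins, and the smallest edgeR adjusted p was 0.104, 0.582 and 0.0849. Most of its reads come from 2 adjacent SNPs in the 3′UTR, which are covered by the same reads.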

How the results depend on the processing

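The higher Xi/Xa ratio over all genes kept its direction under every alternative, with a median difference between 0.30 and 0.38, except 0.015 when each library was centred on its median, where 66 genes were higher in both replicates. The count of genes past the threshold was more dependent on the setting. From 3 genes it went to 1 with at least 10 reads over the 4 libraries, 1 with 1 SNP per gene and 1 with DESeq2. It went to 14 with SNPs at least 100 bp apart (13 of them higher) and 7 in the libraries of day 5 alone (6 higher). With each library centred on its median, 0 genes passed as higher and 2 as lower. Nxt2 then had a difference of 0.46 (edgeR adjusted p 0.535) and Prps1 of 0.32 (edgeR adjusted p 0.348). For totals it went from 0 to 1 with SNPs at least 100 bp apart and to between 0 and 2 without 1 library, and for CAST reads from 1 to between 0 and 3. Genes that differed between hairpins numbered 0 to 2, those whose effect differed between days 1 to 4, and those changed at day 3 0 to 1, when 1 library was left out.

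Without the replicate block, 1 gene had a changed ratio and 0 differed between hairpins. Deviations of same-numbered libraries had a mean correlation of 0.051 for ratios (0.14 for Nons with shSetdb1.6 at day 5) and 0.21 for totals (0.29), with ranges from -0.14 to 0.27 and from -0.056 to 0.66, so the numbers are not shown to pair the samples.

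Centring takes the common shift from all genes alike, which by construction put the differences of Kdm6a at -0.26, Eif2s3x at -0.25 and Hprt at -0.11. Without 1 library Kdm6a ranged from -0.044 to 0.38, Eif2s3x from -0.063 to 0.39 and the total of Bex1 from -0.95 to 0.030. Of 369 further values of single genes 329 kept direction and call, but genes that had not passed had no call to lose. Nxt2 and Prps1, the genes that passed as higher, each lost the call in 10 of 13 settings. The cause of the shifts other than by centring was not tested. Nons replicate 2, with 32972 reads, limits the precision of the day 5 differences from Nons.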
